A study of Homo sapiens with 24 samples.

Results

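A set of 65 protein-coding genes was described whose RNA was nearly absent from the control clones and plentiful in the knockdown clones when HCC1954 breast carcinoma cells carried a lentiviral shRNA. Each was chosen by its level in that comparison alone: FPKM (a read level scaled to transcript length and to library size), summed over the RefSeq transcripts of a gene, had to be under 0.1 in the control group and 10.0 or more in the knockdown group. Genes of several large families (keratins, S100 proteins, claudins, interferon-inducible IFI genes and histones) and genes in a stretch of chromosome 8 and another of chromosome 20 were left out, which removed 2 genes of 67 past both thresholds. The 65 came from 19065 protein-coding genes in the tables. Because these levels picked the genes, their difference between the shRNA groups is a description and carries no test. LDHB, MT1E, GSTP1, MAGEB2 and HBE1 had the highest knockdown levels.

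RNA was sequenced from 24 samples in 8 groups of 3, all of human HER2-positive breast carcinoma lines (SKBR3, HCC1954 and HCC1569) at passages 5 to 10. SKBR3, HCC1954 and HCC1569 cells were each transfected with a non-targeting siRNA or with an siRNA against TFAP2C and were incubated for 72 to 96 h. Stable clones of HCC1954 carried the control shRNA SHC002 or the TFAP2C shRNA TRCN0000019745. TFAP2C encodes the transcription factor AP-2gamma, which binds GC-rich elements and helps maintain luminal breast identity. The submitters state that they did not authenticate the lines, and the labels do not state how many clones stand behind each shRNA group. Every value below is 1 FPKM per group with its samples pooled by the authors, so no replicate spread and no depth can be given. No label states whether replicates came from separate cultures, so the deposited q-values may measure technical spread alone. In such bulk RNA, fewer cells with a transcript and less of it per cell cannot be told apart.

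The genes on this list do unlike jobs. Some are metabolic and detoxifying enzymes: LDHB is the lactate dehydrogenase subunit that favours conversion of lactate to pyruvate, GSTP1 joins glutathione to electrophiles, and MT1E is a metallothionein that binds zinc and copper. Others are normally confined to particular tissues. MAGEB2 is a cancer-testis gene, active in testis and in some tumours, and HBE1 encodes the epsilon globin of the embryonic red cell. Promoter DNA methylation is a known means by which GSTP1, LDHB and many cancer-testis genes are kept silent in tumour lines. Methylation was not measured here.

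The group labelled HCC1954 shRNA knockdown stood apart from every other HCC1954 group. TFAP2C itself was at 157 FPKM in SKBR3 control and 53.9 after siRNA, at 92.4 and 22.0 in HCC1954 with siRNA, and at 81.0 and 3.46 in the shRNA pair. It fell in all 3 comparisons in the authors' deposited table (q = 0.000441, 0.00425 and 0.000121). ERBB2, the gene of HER2, was at 1525 FPKM in the shRNA control and at 20.8 in the shRNA knockdown, whereas the HCC1954 siRNA groups were at 4676 and 4016. When the same thresholds were applied to every ordered pair of groups, 65 genes appeared and 104 disappeared from shRNA control to shRNA knockdown. Between the HCC1954 siRNA groups, and between the SKBR3 siRNA groups, 0 genes met the rule in either direction. From the HCC1954 siRNA control to the shRNA control, groups that differ in delivery but share the line, 1 gene appeared, and in the opposite direction 2 did. From HCC1954 siRNA control to SKBR3 siRNA control, 2 different lines, 49 genes appeared, and 64 did in the opposite direction. Over all pairs, 65 to 129 genes separated the shRNA knockdown group from another HCC1954 group in 1 direction. Those other groups were separated from each other by 0 to 2 genes and from the SKBR3 groups by 38 to 75. Between the shRNA knockdown group and the SKBR3 groups the range was 100 to 118. Effects of the shRNA, of clone selection and of a difference in the cells themselves cannot be told apart with 1 such group, and each statement below about the shRNA knockdown is one about the group so labelled.

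**Figure D1:**
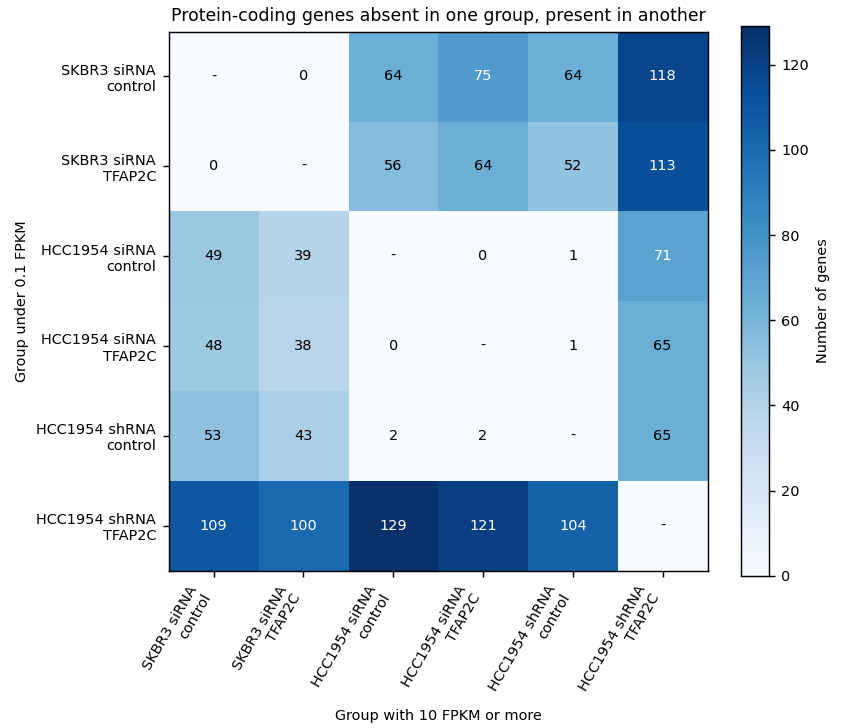
Number of protein-coding genes under 0.1 FPKM in the row group and at 10 FPKM or more in the column group, for each ordered pair of the 6 groups, with darker blue for more genes. The HCC1954 siRNA and shRNA control groups differ by 0 to 2 genes, and every pair with the HCC1954 shRNA knockdown group holds 65 or more.

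The 5 genes with the highest knockdown levels show the main patterns. LDHB (chr12:21788276-21810789, minus strand, hg19, as in the deposited locus) was listed at 0 in both HCC1954 siRNA groups and was at 0.072 FPKM in the shRNA control, against 462 FPKM in the shRNA knockdown. In SKBR3 it was at 162 FPKM in the control and 133 after siRNA. LDHB was therefore high in a line in which TFAP2C was also high, and low only in 3 of the 4 HCC1954 groups.

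GSTP1 (chr11:67351066-67354124, plus strand) showed the same order at lower levels. It was at 0.046 FPKM in the HCC1954 siRNA control, listed at 0 after siRNA and in the shRNA control, and at 264 FPKM in the shRNA knockdown. SKBR3 held 21.2 FPKM in the control and 11.3 after siRNA.

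The other 3 were near 0 in SKBR3 as well. MT1E (chr16:56659585-56661029, plus strand) was at 330 FPKM in the shRNA knockdown and at 0.057 FPKM in the SKBR3 control, and it was listed at 0 in the remaining groups. MAGEB2 (chrX:30233675-30238206, plus strand) was at 190 FPKM in the shRNA knockdown and between 0 and 0.194 FPKM elsewhere. HBE1 (chr11:5289580-5291373, minus strand) was at 147 FPKM, against at most 0.157 FPKM in any other group.

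The 250 bases before the RefSeq start of LDHB, GSTP1 and MAGEB2 (RefSeq, GRCh38.p14) are shown because they are 3 of these 5 genes with a promoter entry, and because CpG-rich promoters differ from CpG-poor ones in how methylation marks them. Capitals mark CpG dinucleotides, and each run reads 5′ to 3′ on the gene's strand.
LDHB: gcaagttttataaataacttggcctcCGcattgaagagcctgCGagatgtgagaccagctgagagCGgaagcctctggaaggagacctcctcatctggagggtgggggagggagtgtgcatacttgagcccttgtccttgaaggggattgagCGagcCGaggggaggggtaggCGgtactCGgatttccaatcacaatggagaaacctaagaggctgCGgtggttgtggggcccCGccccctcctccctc
GSTP1: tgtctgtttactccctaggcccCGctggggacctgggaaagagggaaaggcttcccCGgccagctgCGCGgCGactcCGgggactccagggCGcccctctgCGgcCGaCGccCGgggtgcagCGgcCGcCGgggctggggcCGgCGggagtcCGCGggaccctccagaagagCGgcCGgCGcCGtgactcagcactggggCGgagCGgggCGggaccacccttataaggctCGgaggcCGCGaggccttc
MAGEB2: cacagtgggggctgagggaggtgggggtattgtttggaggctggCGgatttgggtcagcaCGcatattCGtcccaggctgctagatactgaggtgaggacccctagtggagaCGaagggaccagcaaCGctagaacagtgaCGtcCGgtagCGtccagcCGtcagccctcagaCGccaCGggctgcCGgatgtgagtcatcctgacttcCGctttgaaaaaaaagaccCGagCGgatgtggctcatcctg
These windows lie at chr12:21657843-21658092 (minus strand), chr11:67583562-67583811 (plus strand) and chrX:30215313-30215562 (plus strand) in GRCh38.p14. GSTP1 held 28 CpG in a window of 74.8% G and C, LDHB held 9 in 58%, and MAGEB2 held 15 in 59.2%. Over 14955 protein-coding genes with such a window the median was 18 CpG, with quartiles of 7 and 26. GSTP1 thus lay above the upper quartile, and LDHB and MAGEB2 lay below the median but above the lower quartile. The AP-2 motif GCCNNNGGC, which reads the same on both strands, occurred once in the MAGEB2 window, and these letters were not in the LDHB or GSTP1 window. It occurred in 24.6% of all windows. A match is a description and not a binding site. Windows were found for 51 of the 65 genes (78.5%) and for 80.8% of all 18498 genes. The members' share was under the limit of 80% used here, so no comparison of the set was made.

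**Figure D2:**
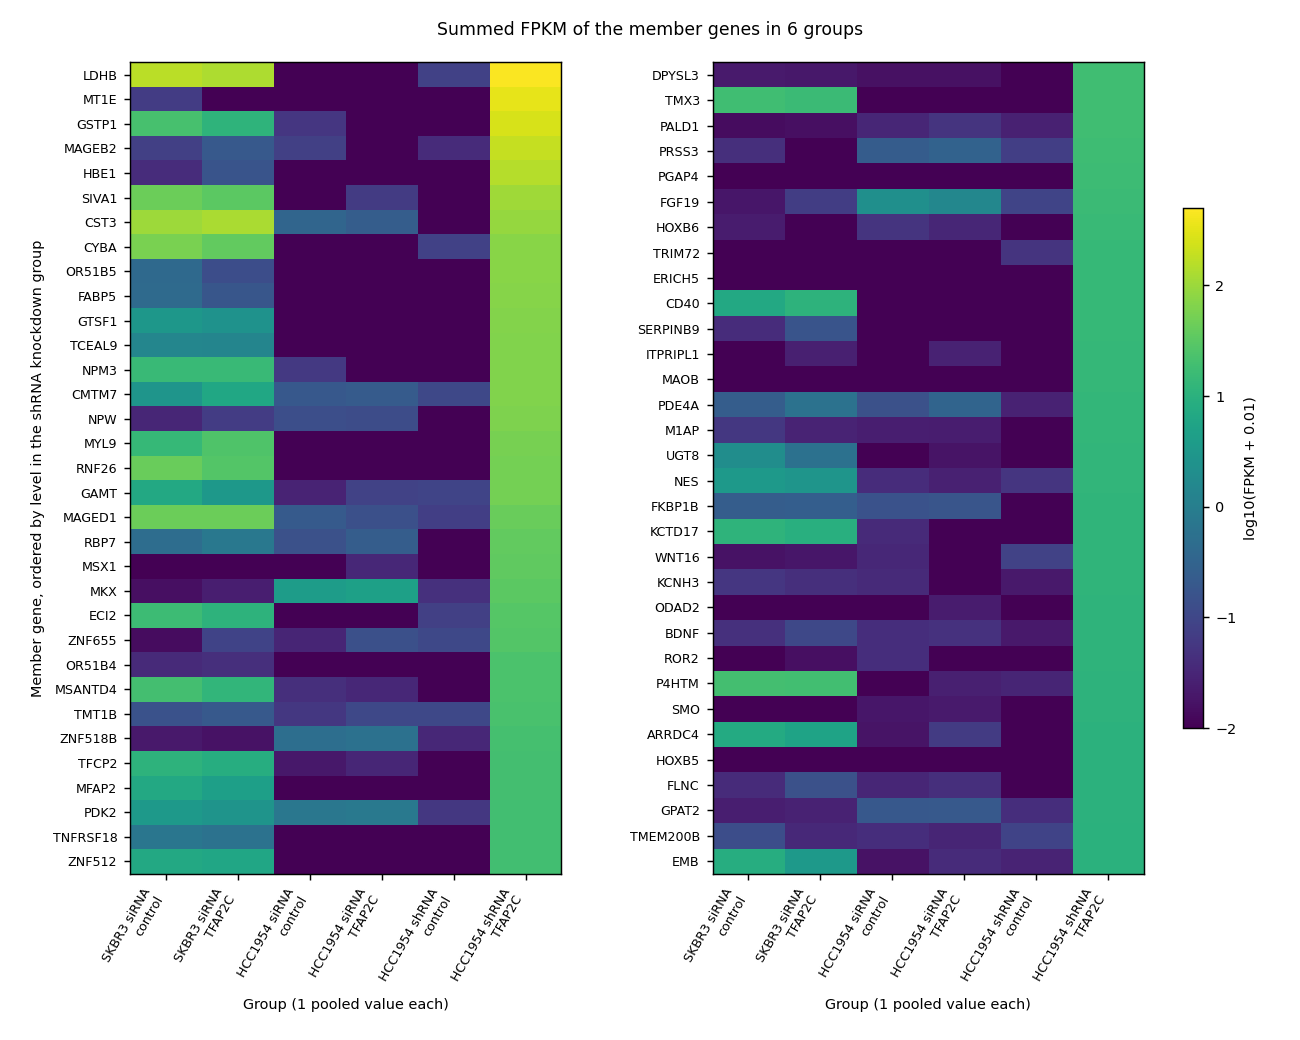
Level of each of the 65 genes as log10(FPKM + 0.01), 1 pooled value per group, in columns by group and in rows from the highest to the lowest level in the HCC1954 shRNA knockdown group. The last column is high by the choice of the genes, the 3 other HCC1954 columns are dark for nearly all genes, and the SKBR3 columns are light for some of them.

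In the shRNA knockdown group the 65 levels ran from 10.2 FPKM (EMB) to 462 FPKM (LDHB), with a median of 18.8 FPKM. There were 6 genes at 100 FPKM or more, 18 at 50 or more and 37 between 10 and 20. In the shRNA control 40 of the 65 were listed at 0 and the highest, CMTM7, was at 0.094 FPKM.

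The HCC1954 siRNA groups, which played no part in the choice, showed nearly the same absence as the shRNA control. In the siRNA control 52 of the 65 were under 0.1 FPKM and 2 (3.08%) reached 1 FPKM. Among all 18498 protein-coding genes outside the excluded families and loci, 59.6% reached 1 FPKM there, and among the 6512 genes at 10 FPKM or more in the shRNA knockdown, 97.7% did. The 2 exceptions were MKX and FGF19. MKX, a homeobox gene of tendon cells, was at 3.96 FPKM in the siRNA control, 4.77 after siRNA, 0.034 in the shRNA control and 32.8 in the shRNA knockdown. FGF19, a hormone-like growth factor that restrains bile acid synthesis, was at 2.14, 1.49, 0.081 and 15.8 FPKM in the same order. For these genes the siRNA control and the shRNA control of HCC1954 differed, which the other members showed in smaller amounts or not at all. The members PDK2 (0.732 FPKM), ZNF518B (0.498) and CST3 (0.326) came next in the siRNA control. Listed at 0 in all 3 other HCC1954 groups were 19 genes, among them MT1E, HBE1, FABP5, GTSF1, TCEAL9, MYL9 and RNF26.

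SKBR3 held some of these genes. In its control group 27 of the 65 (41.5%) reached 1 FPKM and 15 reached 10 FPKM, against 57.8% and 33.5% of all 18498 genes. Among the 6512 genes at 10 FPKM or more in the shRNA knockdown, 96.4% and 77.9% did. The 65 were found in SKBR3 less often than either background, but neither background was picked for absence from the shRNA control. Of the 5415 such genes under 0.1 FPKM in the shRNA control, 53 reached 10 FPKM in the SKBR3 control, the 15 members among them. Beside genes equally absent from that control, the members were thus found in SKBR3 more often. None of these shares was tested. The 65 were therefore not present only in knockdown cells: the description fits HCC1954 but not the other line. Of the 18 genes at 50 FPKM or more in the shRNA knockdown, 12 reached 1 FPKM in the SKBR3 control, and MT1E, MAGEB2, HBE1, OR51B5, FABP5 and NPW did not. CST3, MAGED1, TMX3 and P4HTM were higher in the SKBR3 control than in the shRNA knockdown, although the tables were normalized separately. Median knockdown levels were 28.8 FPKM for the 27 genes found in SKBR3 and 15.6 FPKM for the other 38.

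At the other extreme, 36 genes stayed under 1 FPKM in all 5 other groups, and 19 stayed under 0.1 FPKM. The 19 included the homeobox genes MSX1, HOXB5 and HOXB6, the Hedgehog transducer SMO, the Wnt ligand WNT16, the Wnt receptor ROR2, the neurotrophin BDNF and the monoamine oxidase MAOB. Their shRNA knockdown levels ran from 10.5 FPKM for HOXB5 to 330 FPKM for MT1E. Members were sorted by role after their values had been seen, here and where roles are given below.

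Few of the genes could be tested after transient knockdown in HCC1954. MKX and FGF19 alone were tested in the authors' deposited table, and 0 of these 2 was called by Cuffdiff at q under 0.05 (q = 0.802 for MKX and 0.587 for FGF19), with 0 at an unadjusted p under 0.05. Of all 10773 genes tested there, 2.31% rose and 0.965% fell. After siRNA 51 of the 65 genes were under 0.1 FPKM in both HCC1954 siRNA groups, and none reached 10 FPKM in either. TFAP2C in these cells was at 22.0 FPKM after siRNA, above the 3.46 FPKM of the shRNA knockdown, so depth and duration of the knockdown both differed between the comparisons. Whether either bears on the genes was not tested, and the shRNA groups differed from the siRNA groups in being stable clones as well.

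In SKBR3, where 24 of the 65 genes were tested, 10 fell and 2 rose in the authors' deposited table at q under 0.05. Of all 9903 genes tested there, 21% fell and 12.3% rose. The other 12 tested genes were not called, and 41 were not tested. Among the called falls, that of EMB had the highest ratio. EMB encodes embigin, a carrier partner of monocarboxylate transporters, and went from 8.56 to 3.32 FPKM, a ratio of 2.58 (control over knockdown) with q = 0.000441 in the authors' deposited table. GAMT, which makes creatine, had a ratio of 2.04 on the tested transcript (5.82 to 2.86 FPKM) with q = 0.0081 in the authors' deposited table.

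GSTP1 fell from 21.2 to 11.3 FPKM in SKBR3, a ratio of 1.87 with q = 0.000441 in the authors' deposited table. LDHB fell by less, with a ratio of 1.22 on the tested transcript and q = 0.0122 in the authors' deposited table. The remaining falls were those of CYBA (a subunit of the phagocyte NADPH oxidase, 57.2 to 37.8 FPKM), RNF26 (a ubiquitin ligase, 41.4 to 27.6), SIVA1 (an apoptosis regulator, 44.97 to 33.03), ECI2 (an enzyme of fatty acid oxidation, 16.4 to 11.1), MSANTD4 (19.8 to 12.3) and ARRDC4 (an arrestin-like protein, 7.46 to 5.36). These levels are summed, and on the single tested transcript of each gene the ratios in the authors' deposited table lay between 1.35 and 1.51.

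CMTM7 and CST3 moved the other way in SKBR3. CMTM7, a membrane protein with a MARVEL domain, rose from 2.77 to 6.31 FPKM, a ratio of 2.28 (knockdown over control) with q = 0.000441 in the authors' deposited table. CST3, the secreted protease inhibitor cystatin C, rose from 101 to 127 FPKM, a ratio of 1.25 with q = 0.0111 in the authors' deposited table. The 12 tested genes without a call included MAGED1 (43.4 and 44.3 FPKM), TMX3 (18.1 and 15.8), P4HTM (20.1 and 18.7), MYL9 (14.03 and 25.78) and CD40 (6.86 and 10.96).

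In the shRNA comparison itself, 50 of the 62 tested genes were called higher by the authors' deposited table and 12 were not called, beside 36.3% called higher and 39.2% called lower of all 9564 tested. Nothing is read from this share, because the same values picked the genes. LDHB, with the widest difference in level, was among those without a call (q = 0.0685 in the authors' deposited table), as were MAGED1 (q = 0.199) and CMTM7 (q = 0.269). A gene near 0 in one group could thus miss the threshold of that test in spite of a large difference.

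Among enzymes of lactate and pyruvate metabolism, LDHB and PDK2 were the members. PDK2, a kinase that inhibits pyruvate dehydrogenase, was at 3.39 and 2.66 FPKM in SKBR3, 0.732 and 0.777 in HCC1954 with siRNA, 0.048 in the shRNA control and 19.3 in the shRNA knockdown. LDHA, the subunit that pairs with LDHB in the tetramer, was at 321 FPKM in the shRNA control and 470 in the shRNA knockdown. It was present in both, while LDHB was found in 1 of them. The lactate carrier SLC16A1 was at 13.9 and 75.7 FPKM, and its relative SLC16A3 at 83.6 and 176. Of 12 tested genes of the 16 on this list, 4 rose and 4 fell in the authors' deposited table, with a median log2 ratio of 0.11. Of all genes tested, 36.3% rose and 39.2% fell, with a median of -0.03. List counts here and below include the members that were tested, which this same comparison picked.

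MT1E was the 1 metallothionein of 11 to appear. MT2A, the most abundant of the family, was at 582 FPKM in the shRNA control and 346 in the knockdown, MT1X at 68.8 and 36.0, and MT1F at 13.1 and 7.52. These 3 fell in the authors' deposited table (q = 0.000121 for MT2A and for MT1X, and 0.00633 for MT1F). After siRNA in HCC1954, MT1X went from 208 to 354 FPKM and rose in the authors' deposited table (q = 0.00425), while MT1E stayed listed at 0. Metallothionein copies are nearly identical in sequence, so reads could be split between them by the authors' counting, and the MT1E level is uncertain to that extent.

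GSTP1 was the 1 member among 23 glutathione transferases and peroxidases. GSTO1 was at 18.5 FPKM in the shRNA control and 74.7 in the knockdown, and GSTO2 at 0.81 and 64.4. GSTT1 was at 13.4 FPKM in the shRNA control and listed at 0 in the knockdown, and GSTM3 was at 3.92 and listed at 0, neither of them tested. MGST1, a membrane-bound transferase, was at 338 and 94.2 FPKM. Of 11 tested genes of this list, 6 rose and 3 fell in the authors' deposited table, with a median log2 ratio of 0.33, beside 36.3% higher, 39.2% lower and a median of -0.03 over all tested genes.

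Cancer-testis genes did not appear as a class. Of 31 MAGE genes, MAGEB2 and MAGED1 were members. MAGED1 belongs to the broadly expressed branch of the family and is a partner of the neurotrophin receptor p75. It was at 43.4 and 44.3 FPKM in SKBR3, between 0.064 and 0.206 FPKM in the first 3 HCC1954 groups, and at 42.6 FPKM in the shRNA knockdown. MAGEA2B was at 14.4 FPKM in the shRNA control and 91.2 in the knockdown, while MAGEA6 was at 254 and 12.5, MAGEA3 at 194 and 126, and MAGEH1 at 21.6 and then listed at 0. Of 8 tested MAGE genes, 2 rose and 4 fell in the authors' deposited table, beside 36.3% higher and 39.2% lower of all genes tested. CT83 (34.2 FPKM) and XAGE2 (28.5 FPKM), cancer-testis genes of other families, were listed at 0 in the shRNA knockdown, and PRAME was at 30.8 and 45.7. MAGE copies share sequence, so single levels within the MAGEA branch are uncertain.

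Further members with roles in germ cells were GTSF1, a partner of the piRNA pathway (68.6 FPKM in the shRNA knockdown, 3.12 in the SKBR3 control), M1AP, a meiosis gene (12.8 FPKM), and GPAT2, an acyltransferase of testis (10.3 FPKM). GPAT2 has close copies in the genome. Markers of pluripotent and germ cells, such as NANOG, DAZL and DDX4, were at 0.081 FPKM or below in the shRNA knockdown.

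Several members act at the cell surface or in signalling. CD40, a receptor of the TNF family on antigen-presenting and epithelial cells, was listed at 0 in the first 3 HCC1954 groups and was at 14.2 FPKM in the shRNA knockdown. TNFRSF18 (GITR), of the same receptor family, was at 19.1 FPKM, and SERPINB9, an inhibitor of granzyme B, at 13.9 FPKM. Among ligands, NPW (neuropeptide W) reached 62.2 FPKM, WNT16 11.8 and BDNF 11.4. Among receptors and transducers, ROR2 reached 11.34 FPKM and SMO 11.02.

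Cytoskeletal and matrix genes included MYL9, a myosin light chain (53.6 FPKM in the shRNA knockdown, 14.03 and 25.78 in SKBR3), MFAP2, a microfibril protein (19.4, with 6.75 and 4.56 in SKBR3), and FLNC, the muscle filamin (10.4, with at most 0.140 elsewhere). Lipid-handling members were FABP5, a fatty acid carrier of skin (69.9 FPKM, at most 0.417 elsewhere), RBP7, a retinol carrier (36.7, at most 0.751 elsewhere) and UGT8, which makes galactosylceramide (12.6, with 1.97 and 0.564 in SKBR3). FABP5 has processed copies in the genome, so its level is uncertain to that extent.

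Some of the genes were neighbours. HBE1, OR51B4 and OR51B5 lie on the short arm of chromosome 11, in and beside the beta-globin cluster, a row of globin genes flanked by olfactory receptor genes. In the shRNA knockdown OR51B5 was at 73.3 FPKM, OR51B4 at 23.6, OR51B2 at 5.24, HBG2 at 6.11 and HBG1 at 1.71. In the 3 other HCC1954 groups all 9 genes of this stretch were listed at 0. OR51B6, another receptor gene of this stretch, was at 0.055 FPKM. RNA was thus found from the embryonic and fetal genes of the row and from 3 receptor genes, and HBB and HBD, its adult genes, were listed at 0. In GENCODE the gene models of HBG2 and HBE1 extend across OR51B4, OR51B2 and OR51B6. The HBE1 model also covers all of OR51B5, and the HBG2 model nearly all of it. The deposited loci of HBE1, OR51B4 and OR51B5 held no other gene at 1 FPKM or more. Globin copies are alike, so reads of the neighbours may still be shared. The alpha globins HBA1 and HBA2 were at 2.54 and 3.81 FPKM in the shRNA knockdown.

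The other close pair that belongs to a cluster was HOXB5 and HOXB6 on chromosome 17, 1.97 kb apart, in the row of homeobox genes that sets position along the body axis. HOXB5 was at 10.5 FPKM and HOXB6 at 15.4 in the shRNA knockdown, with at most 0.040 FPKM elsewhere. Their neighbours differed along the row: from shRNA control to knockdown, HOXB2 was at 34.3 and 0.733 FPKM, HOXB3 at 5.38 and 4.69, HOXB4 at 0.064 and 9.77, HOXB7 at 22.9 and 53.7, HOXB8 at 0.144 and 32.0, HOXB9 at 2.16 and 18.8, and HOXB13 at 0 and 7.73. The HOX genes measured from HOXB4 to HOXB13 were higher in the knockdown and HOXB2 was lower. These 2 regions were singled out after their values had been seen.

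**Figure D3:**
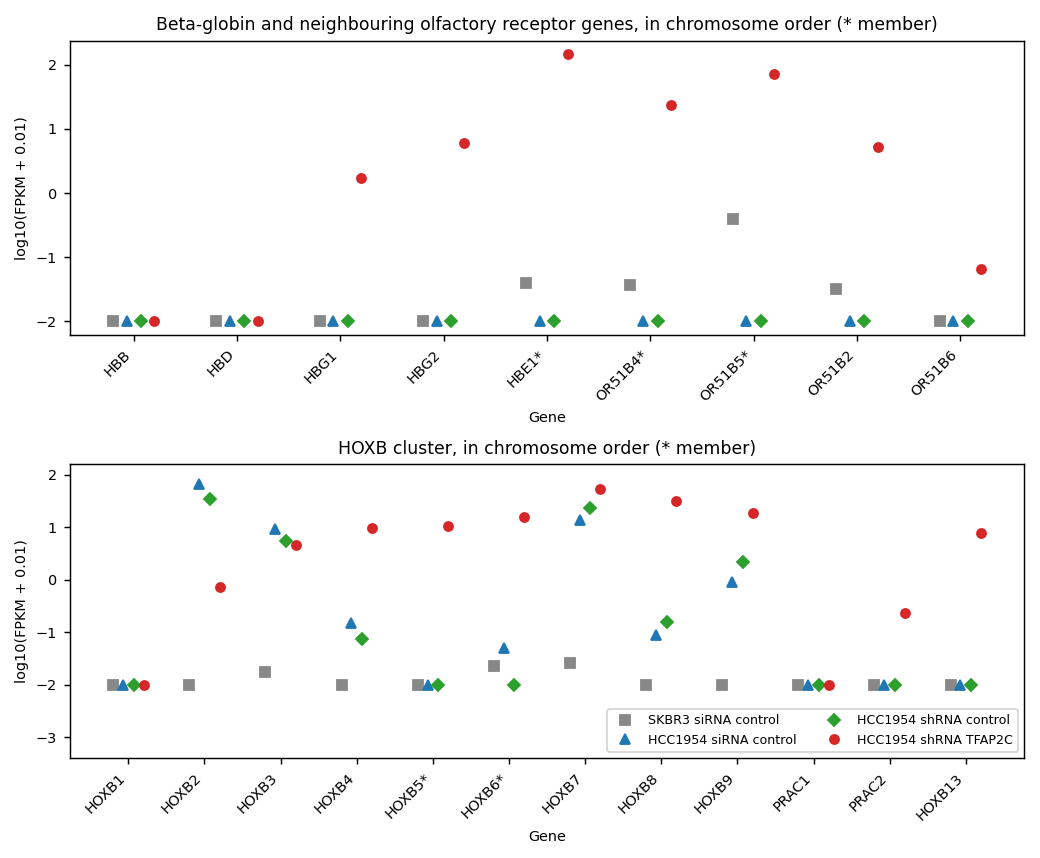
Level as log10(FPKM + 0.01) of genes in chromosome order, for the beta-globin stretch and the HOXB cluster, in 4 groups (grey squares SKBR3 siRNA control, blue triangles HCC1954 siRNA control, green diamonds HCC1954 shRNA control, red circles HCC1954 shRNA knockdown), with members starred. Red circles stand above the rest at HBE1, OR51B4 and OR51B5 and from HOXB4 to HOXB9, and below the HCC1954 controls at HOXB2.

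Other members within 1 Mb of each other were MKX and ODAD2 (29.1 kb apart on chromosome 10), GPAT2 and ITPRIPL1 (286 kb, chromosome 2) and FLNC and SMO (329 kb, chromosome 7). The 65 genes were spread over 21 chromosomes. Chromosome 11 held 8 of the 65 (12.3%), and 6.34% of all genes at 10 FPKM or more in the shRNA knockdown lie there. The X chromosome held 4: MAGEB2, TCEAL9, MAGED1 and MAOB. Deposited loci of 10 members also held another gene at 1 FPKM or more, such as ITGA5 for GTSF1, DLGAP4 for MYL9 and WDR6 for P4HTM. Some of these loci, as for GTSF1 and MYL9, are wider than the gene, and HOXB5 and HOXB6 share a locus. A shared locus therefore need not mean that the genes overlap. The sources used here do not state whether the authors counted by strand, so genes that do overlap cannot be told apart.

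Marker genes of 20 cell types and tissues were read in the same groups to see which lineage the set points to. All 9 markers of epithelium in general were at 1 FPKM or more in the shRNA knockdown, with EPCAM at 161, KRT8 at 807, KRT18 at 306 and CDH1 at 20.7 FPKM. All 9 also reached that level in each of the 3 other HCC1954 groups, and 8 did in SKBR3. Their levels were not the same. From shRNA control to knockdown 7 of the 9 fell and 2 rose in the authors' deposited table, with a median log2 ratio of -0.58. Of all genes tested, 39.2% fell and 36.3% rose, with a median of -0.03. CDH1, the adhesion protein E-cadherin, was at 149 FPKM in the shRNA control, ELF3 was at 200.3 and 24.4 and GRHL2 at 41.3 and 11.8. In the other direction, KRT19 was at 19.9 FPKM in the shRNA control and 634 in the knockdown, and EPCAM was at 112 FPKM in the shRNA control. No other list had all its genes at 1 FPKM in the shRNA knockdown.

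Most markers of the mammary gland were below 1 FPKM. Of 13 luminal markers 2 reached 1 FPKM in the shRNA knockdown, XBP1 at 40.0 and FOXA1 at 2.84 FPKM. In the shRNA control FOXA1 was at 80.4 FPKM, AGR2 at 22.96, SPDEF at 20.4 and GATA3 at 9.99, and in the knockdown AGR2 was at 0.04, SPDEF at 0.12 and GATA3 at 0.73. Of 8 basal markers 1 reached 1 FPKM, ACTA2. KRT5 was at 281 FPKM in the shRNA control and 0.34 in the knockdown, KRT17 at 320 and 0.11, and TP63 at 35.6 and then listed at 0. Of 5 tested luminal markers 4 fell, and of 4 tested basal markers 4 fell, in the authors' deposited table, beside 39.2% of all genes tested and the 7 of 9 general epithelial markers. Median log2 ratios were -4.82 and, over the 3 basal markers with a value in both groups, -9.68, against -0.03 over all tested genes.

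Some erythroid markers were found beside HBE1 and others were not. Of 18, 6 were at 1 FPKM or more: HBE1, HBG1, HBG2, HBA1, HBA2 and EPOR, the erythropoietin receptor, which was at 1.15 FPKM in the shRNA control too and at 6.88 in the knockdown. In each of the 5 other groups 1 of the 18 reached that level. All 3 that were tested, HBE1 included, rose in the authors' deposited table, beside 36.3% of all genes tested. Other erythroid markers, transcription factors and membrane genes among them, were at or near 0. GATA1, GYPB, ALAS2, AHSP and EPB42 were listed at 0, KLF1 was at 0.06 and TAL1 at 0.02 FPKM. Without HBE1, which was chosen for its level, the list summed to 21.1 FPKM in the shRNA knockdown and to between 1.19 and 2.83 FPKM in the 5 other groups.

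Neural markers showed 4 of 12 genes at 1 FPKM or more: TUBB3 at 141, ENO2 at 37.5, NES (a member) at 12.2 and SYP at 1.32 FPKM. TUBB3 was also at 30.1 and ENO2 at 2.99 FPKM in the shRNA control. ELAVL4, NEFM and STMN2 were listed at 0, and SOX2 was at 0.998 FPKM in the shRNA control and 0.25 in the knockdown. All 3 tested neural markers, NES included, rose in the authors' deposited table, with a median log2 ratio of 3.65. Of all genes tested there, 36.3% rose, with a median of -0.03. The 1 neural marker tested after siRNA in HCC1954 rose, beside 2.31% of all genes tested in that comparison. In SKBR3, 0 of 2 tested neural markers were called in either direction, beside 12.3% higher and 21% lower of all genes tested. Nothing is read from so few genes.

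Among intestinal markers 3 of 17 reached 1 FPKM in the shRNA knockdown, among them CDX2, the caudal homeobox factor of gut epithelium, at 9.75 FPKM, and HNF4A at 1.12. In the shRNA control CDX2 and HNF4A were listed at 0. The differentiated markers VIL1, FABP1, CDX1, PHGR1, MUC2, TFF3 and CEACAM5 were listed at 0, and CDH17 was at 0.02 FPKM. CDX2 missed the threshold of the member list by a small margin. Kidney factors PAX2 (3.35 FPKM) and PAX8 (2.89), and HOXB13 of prostate (7.73), were also at 1 FPKM or more, with UMOD, CDH16, KLK2 and KLK3 listed at 0.

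None of the gastric, muscle, endothelial, germ cell or trophoblast markers reached 1 FPKM. Leukocyte markers showed 1 of 12 (CORO1A, 7.03 FPKM, present in every group), and PTPRC and SPI1 were listed at 0. Fibroblast markers showed 1 of 10, COL1A1 at 1.69 FPKM, and COL1A2 and COL3A1 were listed at 0. General epithelial markers were thus the 1 list with every gene at 1 FPKM or more, as in the other HCC1954 groups, and each other list held genes that were not found at that level.

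**Figure D4:**
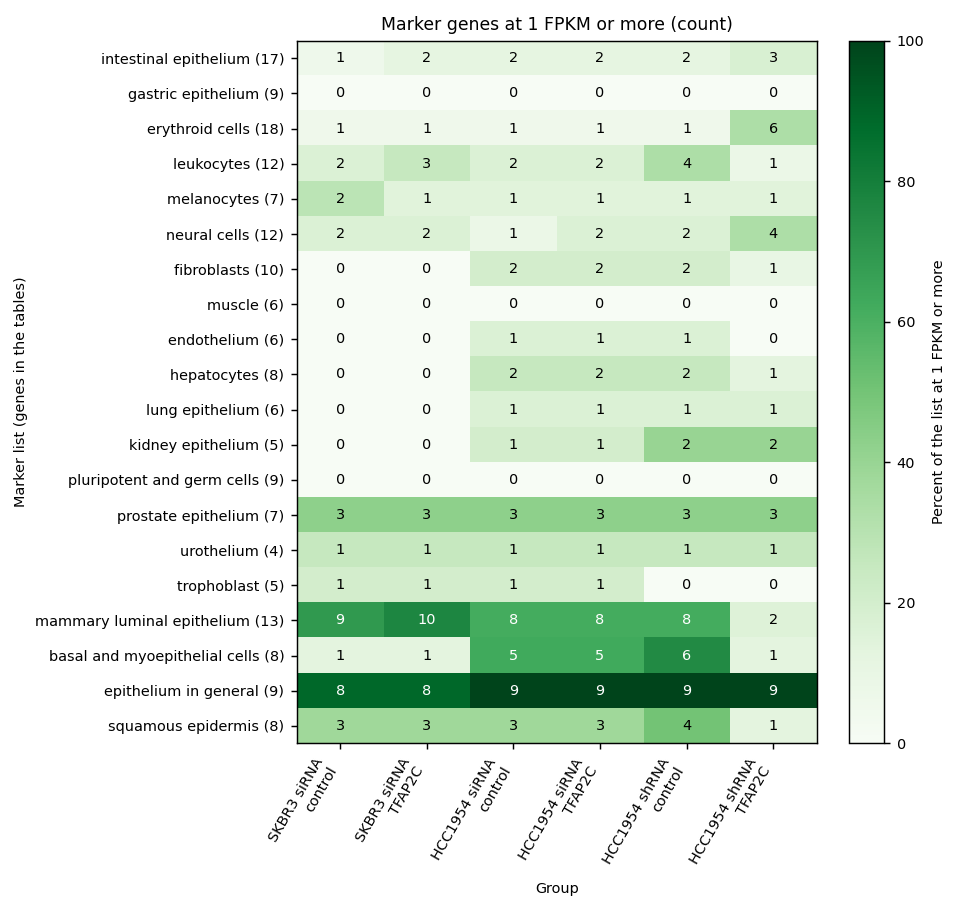
Number of genes of each marker list at 1 FPKM or more in each of the 6 groups, with the list's size in brackets and green shading for the percent of the list. The HCC1954 shRNA knockdown column keeps 9 of 9 general epithelial markers, and it holds 2 of 13 mammary luminal and 1 of 8 basal markers.

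Thresholds set the edge of the list. On the control side the members nearest to 0.1 FPKM were CMTM7, ZNF655, TMT1B, GAMT and FGF19, from 0.094 down to 0.081, and the genes just outside were SCG2, PALM, PLEKHB1, RAB3B and TMEM35B, all at 0.112 FPKM or below, whose knockdown levels ran from 11.1 to 20.6 FPKM. On the knockdown side the members nearest to 10 FPKM were EMB, TMEM200B, GPAT2, FLNC and HOXB5, from 10.2 to 10.5, and just outside were TMEM200A, HOXB4, CDX2, HEYL and GALM, from 9.82 down to 9.64. HOXB4 and CDX2 have a homeobox, as have the members HOXB5, HOXB6, MSX1 and MKX. The table of HCC1569, which lists 68 genes, holds 0 of the 65, so that line was not used further.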

How the data were processed

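RNA of 3 breast carcinoma lines was sequenced after TFAP2C knockdown in 24 samples; per the labels' protocols a TruSeq RNA kit was used. The submitters' processing notes name Bowtie 0.12.2, Cuffdiff (version not given) and build hg19 (GRCh37). FPKM values, 1 per group with samples pooled, and each p-value and q-value are the authors', per the file headers. Without per-sample values no spread, depth or sample model was possible. In the table whose columns name only the siRNAs, HCC1954 was taken from the deposited file's name.

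Of 66321 RefSeq accessions, 65468 matched a symbol (NCBI RefSeq, GRCh38.p14, used for names and gene type) and 853 did not. FPKM was summed per symbol (Python 3.11.15, pandas 2.3.3). Genes were called where the deposited q was under 0.05 for 1 transcript per gene, chosen by its mean FPKM across groups. A recomputed Benjamini-Hochberg adjustment changed 0 calls in the 3 genome-wide tables. The 5 markers, members at 50 FPKM or more, called members, listed genes and genes nearest the thresholds are named by rule, and other names were chosen after values were seen. The members, lists and regions were chosen with earlier results of these data known. Gene positions are the deposited loci (hg19), and distances between genes and cluster order come from GENCODE v44 lifted to GRCh37. Alternatives changed the thresholds, the summing, the exclusions and the call rule. The counting script was tested on simulated data. Some listed genes are not reported here.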

Additional observations from a re-analysis of the deposited data

How the results depend on the processing

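The number of genes followed the knockdown threshold: 65 at 10 FPKM became 132 at 5 FPKM and 28 at 20 FPKM. It was 53 and 97 with control thresholds of 0.05 and 0.5 FPKM, 51 with the highest transcript per gene in place of the sum, and 67 with the excluded families and loci kept in. Across these choices and the levels of 0.5 and 2 FPKM, the share at 1 FPKM or more ran from 34.1% to 53.6% in SKBR3 control, and from 1.89% to 10.3% in HCC1954 siRNA control. Intestinal markers in the shRNA knockdown fell from 3 at 1 FPKM to 1 at 5 FPKM, CDX2. Calls in SKBR3 numbered 9 at q under 0.01 and 13 when any transcript counted, against 12, and in HCC1954 siRNA 0 under each alternative. No paired analysis was possible because the deposited tables hold 1 pooled value per group, and for the same reason leaving out single replicates was not run. The depth behind a value listed at 0 is unknown.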
